A study of Mus musculus with 9 samples.

Results

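The proteasome is the barrel-shaped protease that degrades ubiquitin-tagged proteins, and its mouse subunit genes are named Psma to Psmg by their place in the complex. All genes whose array annotation matched this naming pattern (Psm, a letter from a to g, then a number) were taken, 48 genes with 84 probes, and each was represented by its brightest probe. Of these, 42 genes passed the detection filter and were tested among 10800 genes. Of the 48, 2 matched by symbol only and are not parts of the proteasome, namely Psmc3ip, a factor of meiotic recombination, and Psme3ip1, a protein that binds the activator Psme3. One gene that the pattern also matches was not analysed here.

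The core is a stack of alpha and beta rings. The alpha rings gate the entry, and the beta rings carry the protease sites. A cap made of a base, whose ATPases unfold the substrate, and a lid, which removes the ubiquitin chain, feeds the core. Immune signals exchange some beta subunits for inducible ones and raise the alternative cap PA28, which favours short peptides for display on MHC class I. In heart muscle, which renews its contractile proteins throughout life in cells that rarely divide, the proteasome is known as a main route of protein turnover.

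Total RNA was measured on Illumina bead arrays in 3 groups of 3 arrays each, all untreated mouse cells. CMa are cardiomyocytes purified from the left ventricle at 2 months of age. CMp are cardiomyocytes purified from the heart 1 day after birth, and mES are undifferentiated embryonic stem cells of the source TBV2, so that the stem cell group is 1 line. Strain, sex and the animals behind each array are not given in the labels. Age and the heart region sampled differ together between CMa and CMp, so their contributions cannot be told apart. The labels call the samples biological triplicates without naming separate animals or cultures, so p-values measure only the spread between these arrays. In such bulk RNA, fewer cells of a type and less RNA per cell cannot be told apart.

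The arrays detected 13781 to 15233 of 45281 probes in CMa, 16621 to 17946 in CMp and 16405 to 17875 in mES. All 6 measured cardiomyocyte markers were detected on every CMa and CMp array, with a summed intensity of 101374 to 126796 in CMa, 102607 to 104551 in CMp and 203.4 to 259.4 in mES. All 6 stem cell markers were detected on every mES array, and Pou5f1, Nanog, Sox2 and Tdgf1 on no cardiomyocyte array. Markers of other heart cells were present in both cardiomyocyte groups and are given below beside the inducible subunits and PA28. Between arrays, the first CMp array stood somewhat apart, and correlations among CMp arrays were 0.965 to 0.995, against 0.989 to 0.995 among mES arrays. On that first array 22 of the 42 members had their highest CMp level, and on the first CMa array 23 had their highest CMa level.

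RefSeq promoter windows (build GRCm38.p6, 250 bases before to 50 after the start) were on hand for 40 of the 48 genes, 44 windows in all, and none for Psma8, Psmb1, Psmb2, Psmb7, Psmc3, Psmd3, Psmd7 and Psmg2. The 120 bases before the start are shown for 6 members that mark the patterns described below: the protease subunits Psmb5 and Psmb6, the assembly chaperones Psmd9 and Psmg1, the lid subunit Psmd8, which moved against its group, and the inducible subunit Psmb9. Capitals mark matches to any of 5 motifs searched on both strands. These were TGACNNNGC (the antioxidant response element, bound by the CNC factors Nfe2l1 and Nfe2l2), CGGAAG (a core of ETS sites), CCAAT (bound by NF-Y), TTTC followed by any 2 bases and TTTC (an interferon-stimulated response element) and TTCNNNGAA (a gamma-activated site, bound by STAT factors). No matches of different motifs overlapped in the members' windows.
Psmb5, chr14:54617996-54618115, minus strand: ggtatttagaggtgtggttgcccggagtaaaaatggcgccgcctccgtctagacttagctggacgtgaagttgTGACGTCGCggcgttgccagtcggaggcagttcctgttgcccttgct
Psmb6, chr11:70525237-70525356, plus strand: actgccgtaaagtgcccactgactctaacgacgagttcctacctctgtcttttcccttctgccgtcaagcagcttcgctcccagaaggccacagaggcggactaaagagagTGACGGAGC
Psmd9, chr5:123228070-123228189, plus strand: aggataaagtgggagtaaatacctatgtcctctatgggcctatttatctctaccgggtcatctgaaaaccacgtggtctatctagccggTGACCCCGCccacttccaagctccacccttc
Psmg1, chr16:95990961-95991080, minus strand: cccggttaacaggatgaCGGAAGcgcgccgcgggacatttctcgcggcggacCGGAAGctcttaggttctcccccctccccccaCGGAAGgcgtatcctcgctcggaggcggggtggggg
Psmd8, chr7:29180674-29180793, minus strand: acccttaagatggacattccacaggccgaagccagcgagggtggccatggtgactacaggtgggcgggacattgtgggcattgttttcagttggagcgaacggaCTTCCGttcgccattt
Psmb9, chr17:34187331-34187450, minus strand: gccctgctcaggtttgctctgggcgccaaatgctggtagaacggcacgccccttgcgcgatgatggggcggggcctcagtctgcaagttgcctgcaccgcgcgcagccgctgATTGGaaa

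The antioxidant response letters begin at base -47 in Psmb5, -9 in Psmb6 and -31 in Psmd9, counted from the start. Psmg1 holds the ETS letters 3 times, from bases -103, -68 and -36, and Psmd8 holds them once, on the opposite strand, from base -16. Psmb9 shows a reversed CCAAT from base -8 and no interferon or STAT letters in this window. Over all 44 member windows the ETS letters were present in 56.8%, against 29.2% of the 11181 windows of tested genes and 16.9% of all 32851 windows. The antioxidant letters were no commoner in the members than elsewhere, with 13.6% of member windows, 14.0% of those of tested genes and 12.4% of all. The interferon letters stood in 11.4% of member windows, those of Psmb3, Psmd4, Psmd9, Psme1 and Psmg4, against 2.87% of windows of tested genes. CCAAT was present in 36.4% of member windows and 37.7% of those of tested genes, and the gamma-activated letters in 4.55% and 6.83%. These are matches of letters and do not show binding.

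The first question was how far proteasome transcripts differ between cardiomyocytes and stem cells. The constitutive core and cap were lower in cardiomyocytes of both ages, by a modest amount per gene and across nearly all parts of the complex. All 6 measured assembly chaperones were lower at both ages as well. The inducible subunits Psmb9 and Psmb10, the PA28 subunits Psme1 and Psme2, the activator Psme4 and the lid subunit Psmd8 departed from this, each in its own way.

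In CMp against mES, limma called 33 of the 42 members lower, 3 higher (Psmb10, Psmd8 and Psme1) and 6 in neither direction, at a Benjamini-Hochberg adjusted p under 0.05 over all genes. The same test called 38.8% of all genes lower and 35.4% higher. The members' median log2 change was -0.88, beside -0.09 over all genes. In CMa against mES, 28 members were called lower, 6 higher (Psmb9, Psmb10, Psmd8, Psme1, Psme2 and Psme4) and 8 in neither direction, where the background was 40.2% lower and 36.8% higher. Here the members' median log2 change was -0.60, beside -0.07 over all genes. When arrays were instead scaled to equal medians, this moved the median of all genes itself to -0.59 in CMp and -0.78 in CMa. The members' median, taken relative to that of all genes, was -0.96 in CMp and -0.49 in CMa under that scaling, against -0.79 and -0.53 under the one used. Under it 37 members were called lower and 2 higher in CMp, and 36 lower and 4 higher in CMa, where all 8 members not called here (Psma7, Psmb5, Psmb7, Psmc1, Psmc3, Psmc6, Psmd4 and Psmd6) were called lower.

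**Figure D1:**
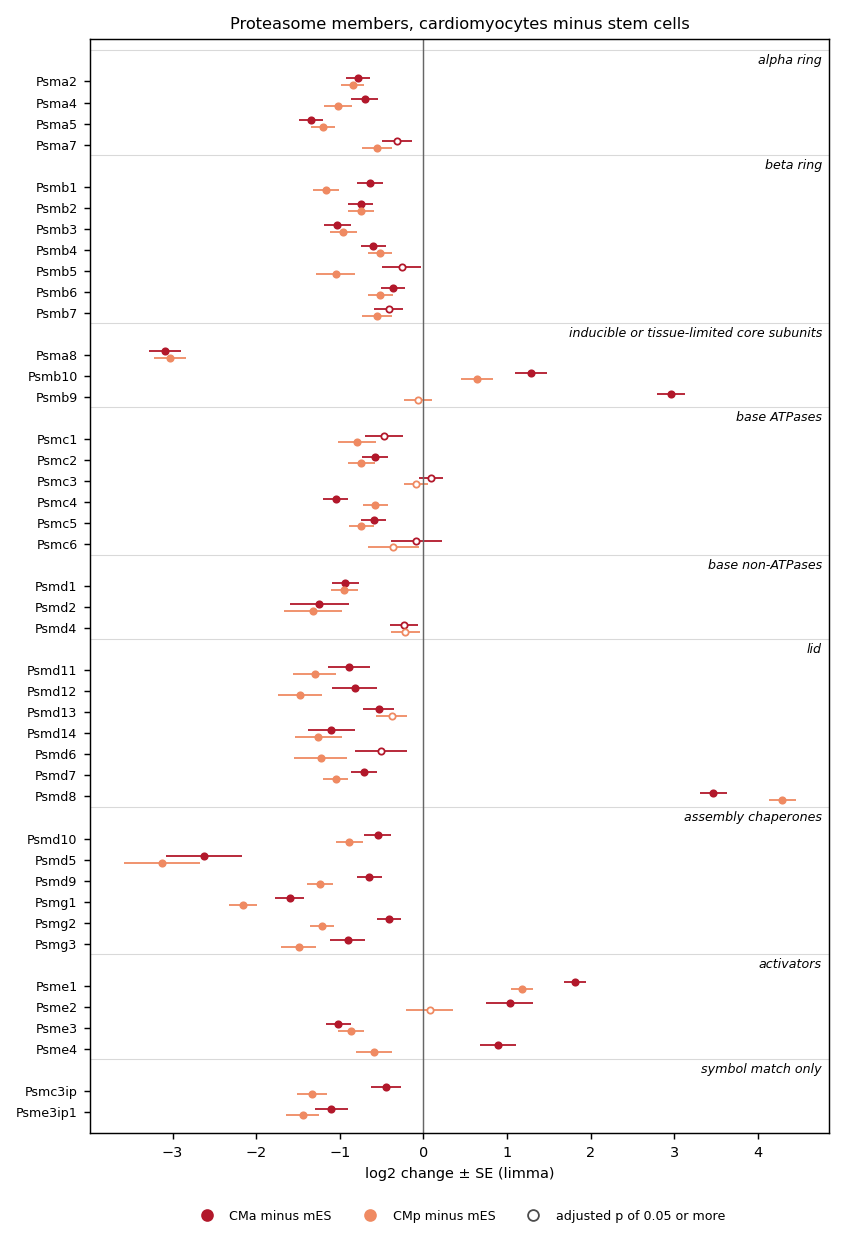
Log2 change of each of the 42 tested members in CMa minus mES (dark red) and CMp minus mES (orange), grouped by role, with bars of 1 SE from limma; open circles did not pass the adjusted p threshold of 0.05. Most members lie left of 0 in both comparisons, which share the mES arrays. The members called higher in CMa, Psmd8, Psmb9, Psmb10, Psme1, Psme2 and Psme4, lie right of it there.

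The alpha ring, whose subunits gate the core, was represented by Psma2, Psma4, Psma5 and Psma7. The probes of Psma1, Psma3 and Psma6 were detected on no array, so their levels are unknown here. All 4 measured alpha genes fell in CMp and 3 of 4 fell in CMa. Psma5 had log2 intensities of 12.38, 12.31 and 12.44 in CMa, 12.58, 12.42 and 12.57 in CMp, and 13.65, 13.73 and 13.79 in mES. Every cardiomyocyte array was more than 1 log2 unit below every mES array. Its log2 change was -1.34 ± 0.14 in CMa and -1.20 ± 0.14 in CMp (SE, limma adjusted p 4.82e-06 and 1.46e-05). Psma7 moved least, with a log2 change of -0.31 in CMa (adjusted p 0.127) and -0.55 in CMp (adjusted p 0.0145).

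The beta ring holds the protease sites: Psmb6 carries the caspase-like site, Psmb7 the trypsin-like site and Psmb5 the chymotrypsin-like site. All 7 constitutive beta genes fell in CMp, and 5 of 7 fell in CMa, where Psmb5 and Psmb7 did not pass the test. Psmb6 had log2 intensities of 12.32, 12.09 and 12.15 in CMa, 12.17, 11.96 and 11.99 in CMp, and 12.59, 12.57 and 12.49 in mES, so that both cardiomyocyte groups lay below mES without overlap. That is 1.29-fold lower in CMa (limma adjusted p 0.0381) and 1.43-fold lower in CMp (adjusted p 0.00766). The CMa call was lost when any of 7 single arrays was left out. Psmb7 had 12.46, 12.41 and 12.22 in CMa, 12.57, 12.09 and 12.02 in CMp, and 12.71, 12.87 and 12.76 in mES, a small step down in each group with no overlap with mES. Its log2 change was -0.42 in CMa (adjusted p 0.0515) and -0.55 in CMp (adjusted p 0.0153). The CMp call was lost without the second or the third CMp array and with the dimmest kept probe (adjusted p 0.0747). In the authors' normalized values the CMa change was called (adjusted p 0.0275). The further kept probes of Psmb7 gave -0.87, -0.61 and 0.04 in CMa, and -1.44, -0.98 and -0.38 in CMp.

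Psmb5 was lower in CMp than in both other groups. Its log2 intensities were 8.91, 8.54 and 8.47 in CMa, 8.35, 7.73 and 7.48 in CMp, and 8.96, 9.07 and 8.67 in mES. CMa overlapped mES, while all CMp arrays lay below both. The log2 change was -0.26 in CMa against mES, with a 95% interval of -0.78 to 0.26 (adjusted p 0.326), and -1.05 ± 0.23 in CMp against mES (SE, adjusted p 0.00188). Under scaling to equal medians Psmb5 was called lower in CMa as well, at -1.27 (adjusted p 0.00057), beside -1.72 in CMp. Psmb3 fell most in CMa, with a log2 change of -1.03, and Psmb1 most in CMp, with -1.17. Both are structural beta subunits without a protease site.

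Of the 6 base ATPases, which unfold the substrate and open the gate, Psmc2, Psmc4 and Psmc5 fell in both groups and Psmc1 in CMp. Psmc4 had log2 intensities of 11.22, 11.08 and 11.16 in CMa, 11.41, 11.71 and 11.77 in CMp, and 12.19, 12.27 and 12.15 in mES, 3 levels without overlap. Its log2 change was -1.05 ± 0.15 in CMa and -0.58 ± 0.15 in CMp (SE, adjusted p 7.19e-05 and 0.00523). Psmc3 and Psmc6 passed the test in neither group. The groups of Psmc3 overlapped, with 11.57, 11.36 and 11.57 in CMa, 11.38, 11.40 and 11.18 in CMp, and 11.38, 11.41 and 11.44 in mES. The 95% interval of its log2 change was -0.23 to 0.41 in CMa and -0.41 to 0.23 in CMp. Under scaling to equal medians Psmc3 was instead called lower in CMa, at -0.56 (adjusted p 0.00648).

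Among the non-ATPase subunits of the base, the scaffold Psmd1 fell, with a log2 change of -0.94 in CMa and -0.95 in CMp. The scaffold Psmd2 also fell, with log2 changes of -1.24 in CMa and -1.32 in CMp, but its probe was dim and was detected on only 2 of 3 CMa arrays. In the authors' normalized values the falls of Psmd2 were smaller, at -0.37 and -0.39. Psmd4, a ubiquitin receptor, had a log2 change of -0.23 in CMa and -0.22 in CMp (adjusted p 0.238 and 0.272), with 95% intervals of -0.61 to 0.15 and -0.60 to 0.16. Under scaling to equal medians Psmd4 was called lower in both, at -0.77 and -0.84 (adjusted p 0.000524 and 0.000305).

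The lid, which removes ubiquitin chains, had the lowest median of the cap parts in CMp, at -1.23, and -0.71 in CMa. Of 7 measured lid genes 5 fell in each group, and the probes of Psmd3, another lid gene, were detected on no array. Psmd14 encodes the deubiquitinase of the lid. Its log2 intensities were 9.68, 9.02 and 9.19 in CMa, 9.84, 8.85 and 8.73 in CMp, and 10.49, 10.33 and 10.38 in mES. The first array was the highest in both cardiomyocyte groups, and all 6 arrays were still below mES. The log2 change was -1.10 ± 0.28 in CMa and -1.26 ± 0.28 in CMp (SE, adjusted p 0.00392 and 0.00182). Psmd11, a scaffold of the lid, had 8.58, 8.19 and 7.88 in CMa, 8.29, 7.63 and 7.50 in CMp, and 9.24, 9.28 and 8.81 in mES. It was 1.86-fold lower in CMa and 2.46-fold lower in CMp (adjusted p 0.00733 and 0.000713). Psmd12 fell most in CMp, with a log2 change of -1.48, and had -0.82 in CMa.

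Psmd8 is also a lid subunit. Of the 27 measured genes of the constitutive core and cap within the naming pattern, it alone was called higher in either group. Sem1, a small lid subunit outside the pattern, was called higher in both groups as well and is given below. Psmd8 had log2 intensities of 10.38, 10.24 and 10.22 in CMa, 10.92, 11.21 and 11.18 in CMp, and only 6.66, 6.75 and 7.03 in mES. It was 11.1-fold higher in CMa and 19.6-fold higher in CMp (limma adjusted p 7.54e-09 and 2.21e-09), and CMa lay 1.77-fold below CMp (adjusted p 0.00145). In the authors' normalized values the log2 change of Psmd8 was smaller, at 2.28 in CMa and 3.05 in CMp, and under scaling to equal medians it was 2.70 and 3.55, against 3.47 and 4.29 here. The second Psmd8 probe was detected on no array of any group. Probe positions were not used here, so whether both probes target the same transcript is unknown, and the rise rests on 1 probe. Across the 9 arrays its level ran opposite to the mean of the constitutive core (Pearson's r -0.979, a description over arrays that share these groups).

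**Figure D2:**
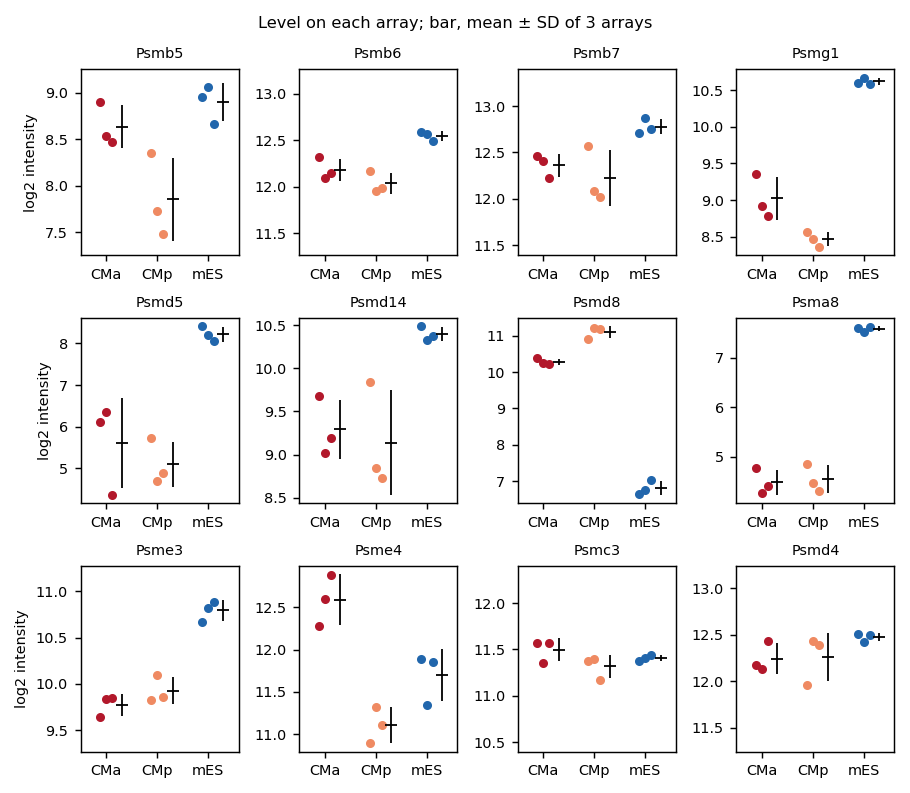
Log2 intensity on each array (points) with mean and SD of 3 arrays (bar) for 12 members, with CMa left, CMp in the middle and mES right in each panel. Psmb6, Psmb7, Psmg1, Psmd5, Psmd14, Psma8 and Psme3 sit below mES on all cardiomyocyte arrays, Psmd8 sits above, and Psmc3 and Psmd4 overlap; panels have separate axes because levels of different probes are not comparable.

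The assembly chaperones build the rings and the base and leave before the complex is finished. All 6 measured chaperones fell in both groups, with a median log2 change of -0.77 in CMa and -1.36 in CMp, while Psmg4 was detected on no array. Psmg1, which pairs with Psmg2 to start the alpha ring, had log2 intensities of 9.36, 8.92 and 8.79 in CMa, 8.56, 8.47 and 8.36 in CMp, and 10.61, 10.67 and 10.59 in mES. The 3 groups did not overlap. Psmg1 was 3.03-fold lower in CMa and 4.46-fold lower in CMp (adjusted p 6.64e-06 and 7.34e-07). Of all members it followed the mean of the core most closely across the 9 arrays (Pearson's r 0.987).

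Psmd5, a chaperone of the base, had the lowest log2 change of the chaperones in both groups. Its log2 intensities were 6.12, 6.35 and 4.35 in CMa, 5.71, 4.70 and 4.87 in CMp, and 8.42, 8.20 and 8.05 in mES. It was detected on 2 of 3 CMa arrays, on 1 of 3 CMp arrays and on all mES arrays, so the low values lie near the background. The log2 change was -2.62 ± 0.45 in CMa and -3.13 ± 0.45 in CMp (SE, adjusted p 0.00029 and 8.42e-05). In the authors' normalized values it was -1.01 and -1.12. The other chaperones, Psmd9, Psmd10, Psmg2 and Psmg3, had log2 changes of -0.42 to -0.90 in CMa and -0.89 to -1.49 in CMp.

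Psma8, an alpha subunit known from male germ cells, where it takes the place of Psma7, was detected in stem cells alone. Its log2 intensities were 4.77, 4.27 and 4.42 in CMa, 4.86, 4.47 and 4.32 in CMp, and 7.60, 7.52 and 7.62 in mES. On all 6 cardiomyocyte arrays the probe was not well above background. Against the lowest detected signal of each array, Psma8 was at least 4.39-fold lower in CMa and at least 6.18-fold lower in CMp. Psma8 passed the detection filter only through the mES arrays, where it is high. Its lower calls were thus largely fixed in advance, though it is counted among the members called lower in both comparisons. A second Psma8 probe was likewise detected on the mES arrays only, with a mean log2 intensity of 7.73 there. It was not well above background in CMa and CMp, and it passed the filter in the same way. The size depends on the background correction. Without it the log2 change of Psma8 was -1.52 in CMa and -1.49 in CMp, and in the authors' normalized values it was -0.87 and -0.86. Psmb11, the beta subunit of the thymus, was detected on no array.

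The inducible beta subunits did not share the fall of the constitutive ones. Psmb9, which takes the place of Psmb6, had log2 intensities of 8.95, 9.19 and 9.004 in CMa, 5.84, 6.31 and 5.94 in CMp, and 6.07, 6.04 and 6.17 in mES. All 3 CMa arrays lay well above the rest, and CMp overlapped mES. Psmb9 was 7.76-fold higher in CMa than in mES and 8.11-fold higher in CMa than in CMp (adjusted p 3.27e-08 and 2.06e-07). In CMp against mES the log2 change was -0.06, with a 95% interval of -0.43 to 0.31 (adjusted p 0.746), and under scaling to equal medians it was called lower, at -0.42 (adjusted p 0.0456). In the authors' normalized values the log2 change of Psmb9 in CMa was smaller, at 1.49 against mES and 1.5 against CMp, and was called in both.

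Psmb10, which takes the place of Psmb7, had 10.76, 10.85 and 10.79 in CMa, 9.89, 10.10 and 10.46 in CMp, and 9.502, 9.79 and 9.24 in mES, an order without overlap. It was 2.44-fold higher in CMa than in mES, 1.56-fold higher in CMp than in mES, and 1.56-fold higher in CMa than in CMp (adjusted p 9.65e-05, 0.0109 and 0.0162). The CMp call was lost without the third CMp array or the third mES array, and the sign turned under scaling to equal medians, at -0.16 (adjusted p 0.424). A second probe of Psmb10 gave log2 changes of 1.46 in CMa against mES, 0.70 in CMp against mES and 0.76 in CMa against CMp.

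Psme1 and Psme2 form PA28, the alternative cap raised by interferon. Psme1 had log2 intensities of 12.53, 12.55 and 12.41 in CMa, 11.83, 11.86 and 11.89 in CMp, and 10.64, 10.68 and 10.73 in mES. The arrays of each group were nearly equal and the groups far apart. Psme1 was 3.52-fold higher in CMa and 2.26-fold higher in CMp than in mES (adjusted p 3.23e-07 and 1.37e-05), and 1.55-fold higher in CMa than in CMp (adjusted p 0.00246). Under scaling to equal medians its log2 change was 1.14 in CMa and 0.40 in CMp, still called.

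Psme2 had 9.31, 8.996 and 8.45 in CMa, 8.57, 7.83 and 7.49 in CMp, and 7.88, 8.01 and 7.77 in mES. CMa lay above mES, and the first CMp array reached into the CMa range. It was 2.04-fold higher in CMa than in mES and 1.94-fold higher in CMa than in CMp (adjusted p 0.00635 and 0.0156), while CMp and mES differed by 0.07 on the log2 scale (95% interval -0.55 to 0.70). Under scaling to equal medians neither CMa call held, at 0.07 and 0.65 (adjusted p 0.831 and 0.0921). The call against CMp was also lost without the second or the third CMp array or the first CMa array.

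Psme3 and Psme4 are activators of the nucleus. Psme3, a ring of 1 kind of subunit known from cell growth, had 9.64, 9.83 and 9.85 in CMa, 9.83, 10.10 and 9.86 in CMp, and 10.67, 10.81 and 10.89 in mES. It was 2.02-fold lower in CMa and 1.82-fold lower in CMp (adjusted p 9.36e-05 and 0.000357). Psme3 and its partner Psme3ip1 were thus both lower in both groups, the partner with log2 changes of -1.10 and -1.44.

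Psme4 encodes PA200, known from DNA repair and from the removal of histones in spermatids. Its log2 intensities were 12.28, 12.60 and 12.88 in CMa, 10.89, 11.32 and 11.11 in CMp, and 11.89, 11.35 and 11.85 in mES. All CMa arrays lay above mES and all CMp arrays below it. Psme4 was 1.85-fold higher in CMa than in mES (adjusted p 0.0028), 1.51-fold lower in CMp than in mES (adjusted p 0.0273) and 2.78-fold higher in CMa than in CMp (adjusted p 0.000191). The rise against mES was not called under scaling to equal medians, at 0.30 (adjusted p 0.148). The fall in CMp was lost without replicate 1 or 3 of either CMp or mES. A dimmer second probe gave larger changes in the same directions, 1.54, -1.002 and 2.54.

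The second question was what differs between adult and neonatal cardiomyocytes. Few genes of the constitutive complex passed the test, while Psmb9, Psmb10, PA28, Psme4 and 4 of the 6 chaperones were called higher in the adult cells. Of these chaperones Psmg2 alone kept its call under scaling to equal medians. In CMa against CMp, 12 of 42 members were called higher, 2 lower (Psmc4 and Psmd8) and 28 in neither direction. The background was 26.4% of all genes higher and 25.9% lower. The higher count was thus near the background share and by itself does not set the members apart, while the lower count was below its share. The members' median log2 change was 0.30, beside 0.01 over all genes. Of the 27 measured genes of the constitutive core and cap within the naming pattern, 2 were higher (Psmb1 and Psmb5), 2 lower and 23 not called. Of the 6 chaperones, Psmd9, Psmg1, Psmg2 and Psmg3 were higher, and of the 4 activators Psme1, Psme2 and Psme4 were.

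Psmg2 moved most among the chaperones, with 9.67, 9.58 and 9.71 in CMa against 8.77, 8.83 and 8.96 in CMp. All 3 adult arrays lay above the neonatal ones. It was 1.74-fold higher in CMa (adjusted p 0.000786), and 2 further probes gave log2 changes of 1.06 and 1.09, against 0.80 for the brightest. Psmb5 was 1.72-fold higher in CMa than in CMp (adjusted p 0.0159) and Psmb1 was 1.44-fold higher (adjusted p 0.0163). The count of 12 depended on single arrays: it was 7 without the second CMp array, 9 without the third, 8 without the first CMa array and 15 without the first CMp array. Without the second CMp array the calls of Psmb1, Psmb5, Psmb10, Psme2 and Psmg1 were lost, while Psmb9, Psmd9, Psme1, Psme4, Psmg2 and Psmc3ip kept theirs whichever array was left out. The call of Psmg3 was also lost under cyclic loess, in the authors' normalized values, with no detection filter and without any of 4 single arrays, and that of Psmg1 under cyclic loess and without any of 3 single arrays. Psmd9 had a log2 change of only 0.09 with its dimmest kept probe (adjusted p 0.837), against 0.59 with the brightest. Under scaling to equal medians the calls of Psmb5, Psmd9, Psme2, Psmg1 and Psmg3 were lost, and the lower call of Psmc4 was lost without replicate 2 or 3 of CMp or replicate 2 of CMa.

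**Figure D3:**
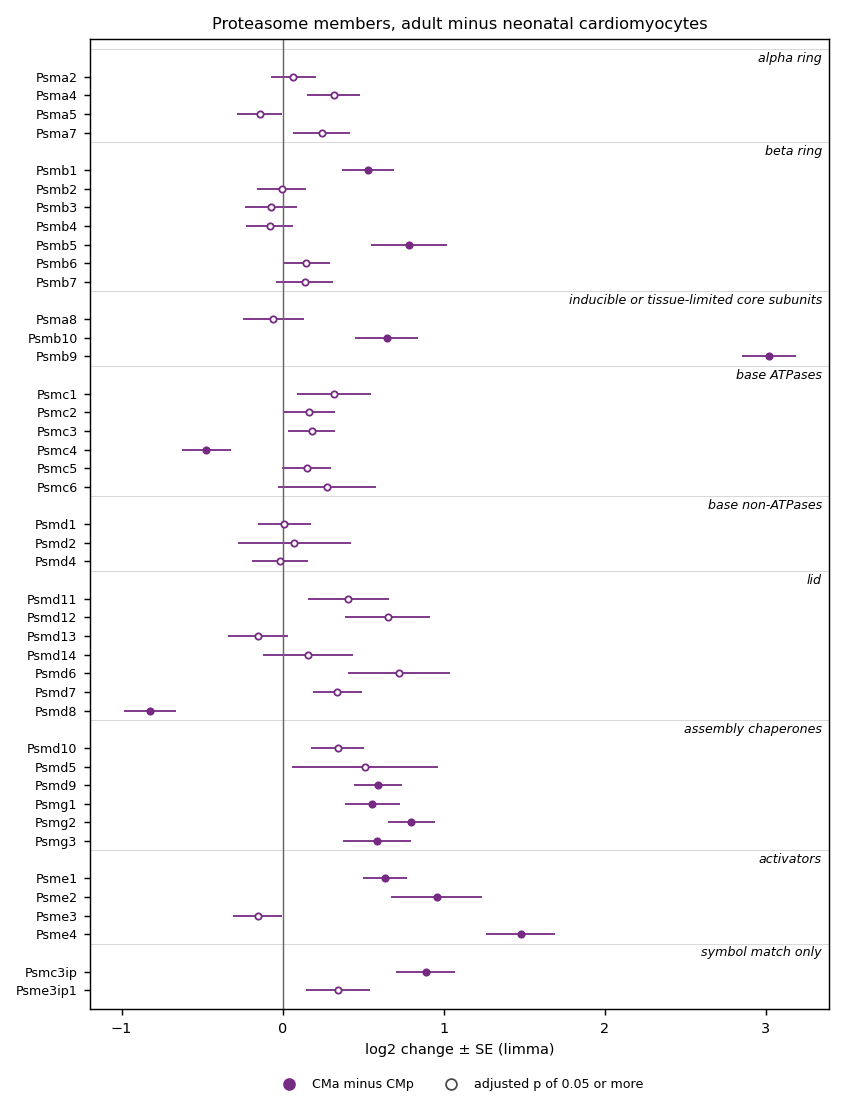
Log2 change of each of the 42 tested members in CMa minus CMp, by role, with bars of 1 SE from limma; open circles did not pass the adjusted p threshold of 0.05. Psmb9 at 3.02 and Psme4 at 1.48 stand to the right, 28 members are open, and Psmc4 and Psmd8 are the 2 called below 0.

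Genes of the interferon response and antigen display, with which Psmb9, Psmb10 and PA28 are known to be induced, were measured beside them. Of 9 genes in that list, 8 were higher in CMa and 7 in CMp than in mES, none was lower, and 6 were higher and 2 lower in CMa than in CMp, where 36.8%, 35.4% and 26.4% of all genes were called higher in the 3 comparisons. B2m, the light chain of MHC class I, had 13.03, 13.18 and 13.23 in CMa, 12.52, 12.47 and 12.43 in CMp, and 9.46, 8.82 and 9.34 in mES. It was already high in CMp, where Psmb9 overlapped mES. Nlrc5, an activator of MHC class I genes, was detected on all CMa arrays and on no other array, with 6.34, 5.89 and 6.44 in CMa against 4.31, 4.61 and 4.56 in CMp. Nlrc5 was at least 2.42-fold higher in CMa than in CMp. It passed the detection filter only through the CMa arrays, so its higher calls, counted above, were largely fixed in advance. Tap2, the peptide transporter, had a log2 change of 3.30 in CMa and 1.58 in CMp against mES. The interferon response factors Irf1 and Irf8 went the other way with age, with log2 changes of -1.28 and -1.43 in CMa against CMp.

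Most markers of other heart cells, in which inducible subunits are also known to be expressed, were lower in CMa than in CMp. Of 8 leukocyte markers measured, 7 were lower in CMa, and their summed intensity was 447.5 to 738.3 in CMa against 1826 to 1950 in CMp. Tyrobp, Adgre1 and Cd52 were detected on no CMa array and no mES array. They passed the detection filter only through the CMp arrays, where they are high. Their lower calls, counted among the 7, were thus largely fixed in advance. Lyz2 was the exception and, averaged 7.50 in CMa and 7.23 in CMp (adjusted p 0.713). All 6 endothelial markers were lower, with sums of 3928 to 5594 in CMa against 11901 to 21005 in CMp, and all 6 fibroblast markers, with 4343 to 5582 against 16190 to 21108. The fibroblast marker Col1a2 also passed the filter only through the CMp arrays, so its lower call was largely fixed in advance. The smooth muscle markers summed to 5698 to 6378 in CMa against 29494 to 30791 in CMp, mostly Acta2. Of these 4, Acta2 and Tagln were lower in CMa, while Myh11 and Rgs5 had log2 changes of -0.25 and 0.11 (adjusted p 0.456 and 0.689). The erythroid markers summed to 2521 to 5182 in CMa against 31834 to 35740 in CMp. Psmb9, Psmb10, Psme1 and Psme2 were higher in CMa than in CMp, while most of these markers were lower in CMa. In mES no fibroblast marker was detected, and the leukocyte sum of 1702 to 1767 rested on Laptm5 and Coro1a alone. The part of these other cells in the members' changes was not tested in any comparison.

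**Figure D4:**
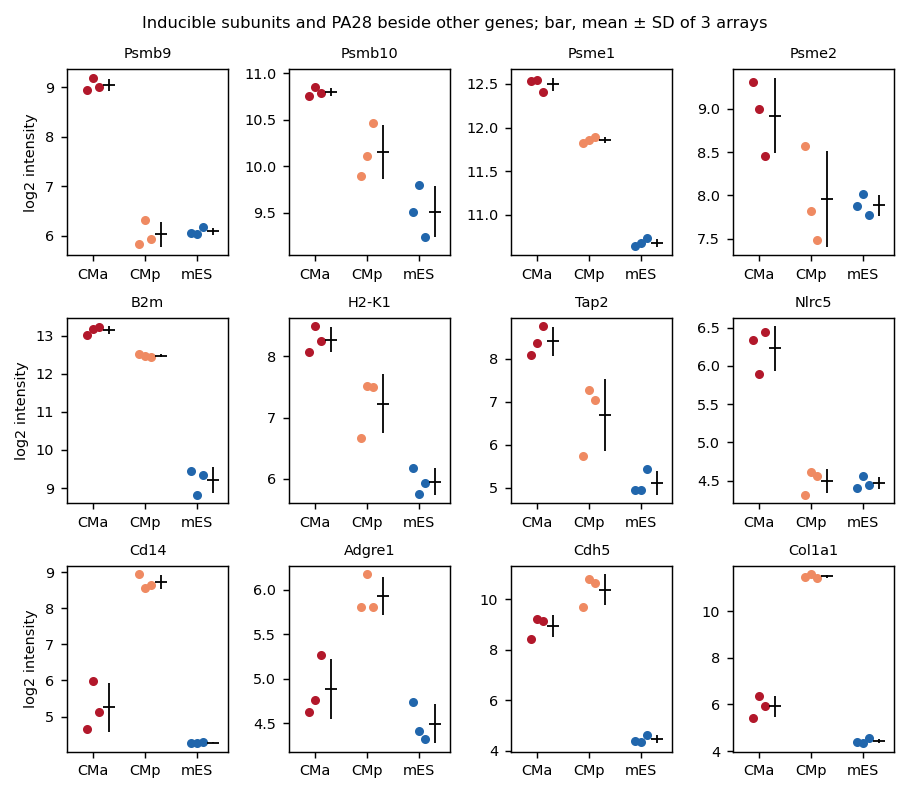
Log2 intensity on each array (points) with mean and SD of 3 arrays (bar) for 4 inducible members (top row), 4 genes of antigen display (middle row) and markers of leukocytes (Cd14, Adgre1), endothelium (Cdh5) and fibroblasts (Col1a1) (bottom row), with CMa left, CMp in the middle and mES right in each panel. The members and antigen display genes are highest in CMa, and the 4 markers shown are highest in CMp, unlike the leukocyte markers Lyz2, Laptm5 and Coro1a, which are not shown. Nlrc5 passed the detection filter only through the CMa arrays, and Adgre1 only through the CMp arrays.

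Of 15 measured partners of the proteasome outside the naming pattern, 5 were lower and 5 higher in CMa than in mES, beside 40.2% and 36.8% of all genes. In CMp 9 were lower and 5 higher than in mES, beside 38.8% and 35.4%. Their median log2 change was -0.28 in CMa and -0.59 in CMp. Uchl5 and Usp14 are deubiquitinases of the cap. Both fell, Uchl5 with log2 changes of -2.36 in CMa and -2.53 in CMp (adjusted p 8.63e-08 and 6.88e-08) and Usp14 with -0.84 and -1.91. Pomp, the maturation factor of the core, fell as well, with -0.38 in CMa and -0.84 in CMp. Ecpas, an adaptor and scaffold of the cap, rose, with 10.49, 10.26 and 10.73 in CMa, 9.15, 9.51 and 9.58 in CMp, and 7.57, 7.64 and 7.24 in mES. Its log2 change was 3.01 in CMa and 1.93 in CMp (adjusted p 8.63e-08 and 4e-06). Sem1, the small lid subunit that lies outside the naming pattern, also rose, by 0.73 in CMa and 0.48 in CMp.

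Among 13 measured regulators of proteasome genes, 4 were higher and 2 lower in CMa than in mES, beside 36.8% and 40.2% of all genes, and 7 were higher and 1 lower in CMp, beside 35.4% and 38.8%. Their median log2 change was -0.15 in CMa and 0.60 in CMp. Nfe2l1, the factor that raises proteasome genes when the complex is inhibited, had 11.89, 12.18 and 12.50 in CMa, 11.17, 11.49 and 11.54 in CMp, and 9.91, 10.00 and 9.91 in mES. Its transcript was thus higher in both cardiomyocyte groups, in which most of the constitutive members were lower, with a log2 change of 2.25 in CMa and 1.46 in CMp (adjusted p 7.46e-07 and 3.07e-05). Nfe2l2, its relative, had -0.27 and -0.45 and was not called. Bach1 and Maff, which bind the same response element, were higher in CMp, with log2 changes of 2.88 and 2.67, and were lower in CMa than in CMp, with -2.33 and -2.65. Maff was detected on only 1 of 3 CMa arrays and 2 of 3 mES arrays. Nfyb, a CCAAT-binding subunit, was lower in both, with -2.35 in CMa and -2.10 in CMp. Of the ubiquitin list 1 gene was measured, the activating enzyme Uba6, with a log2 change of 2.23 in CMa (adjusted p 0.000191) and 0.53 in CMp (adjusted p 0.209).

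The members with ETS letters in a promoter window were set beside those without. Of 22 tested members with the letters, 16 were lower in CMa (72.7%) and 18 in CMp (81.8%), with median log2 changes of -0.76 and -0.95. Of 13 tested members with a window and no such letters, 7 were lower in CMa (53.8%) and 9 in CMp (69.2%). Their median log2 changes were -0.37 and -0.74. Among all tested genes with a window the shares were 45.6% in CMa and 45.3% in CMp for the 2968 with the letters, and 37.8% and 36.1% for the 5747 without. Median log2 changes over all these genes were -0.34 in both comparisons with the letters and 0.05 in both without. Psmd8, which rose, holds the letters as well.

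Other probes of the same gene gave a check on the brightest. For 21 members there were 27 further kept probes. They had the same sign as the brightest in 25 of 27 cases in CMa against mES, in 26 of 27 in CMp against mES and in 24 of 27 in CMa against CMp. The further probes had a median log2 change of -0.81 in CMa and -1.26 in CMp, against -0.58 and -0.95 for the brightest probes of the same genes. Psmd7, a lid subunit, had the widest disagreement. Its 3 kept probes gave log2 changes in CMp of -1.05, -1.95 and 0.63, and in CMa of -0.71, -1.39 and -1.33. In CMa against CMp the dimmest Psmd7 probe gave -1.96 (adjusted p 0.000102), where the brightest gave 0.34 (adjusted p 0.0823).

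**Figure D5:**
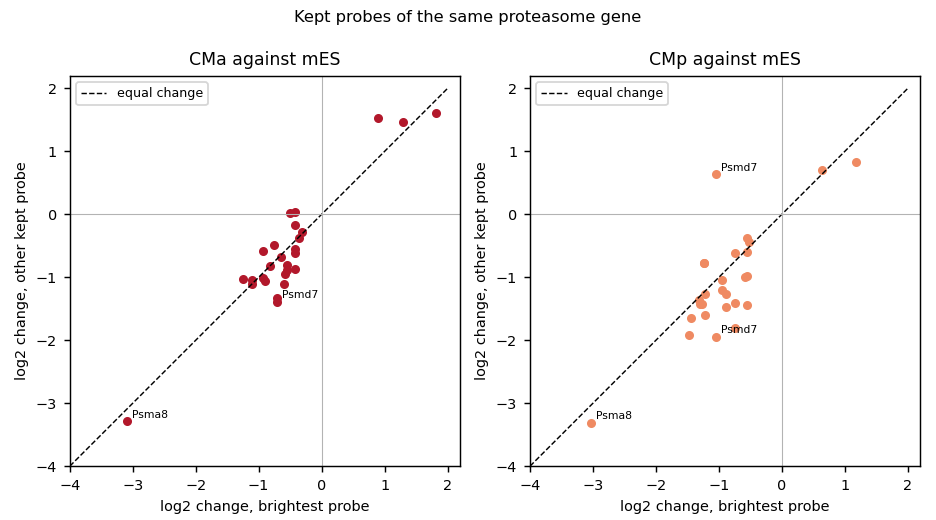
Log2 change of each further kept probe (vertical axis) against that of the brightest probe of the same gene (horizontal axis), for 27 pairs in CMa against mES (left) and CMp against mES (right), with a dashed line of equal change. Most falls lie on or below the line, the Psma8 probes, at background in the cardiomyocytes, lie together near -3, and 1 Psmd7 probe rises in CMp where the brightest falls.

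Genes outside the family that followed the mean of the constitutive core most closely over the 9 arrays were Pno1 (Pearson's r 0.998), Nme4 and Eef1e1 (both 0.995), Lsm3 and Nsf (0.994 and 0.993). Pno1 is an assembly factor of the small ribosomal subunit and Lsm3 belongs to the U6 RNA particle of the spliceosome. The 9 arrays fall into 3 groups, so these values mostly reflect group means and are given as a description. Pno1 had group means of 10.40 in CMa, 9.88 in CMp and 12.02 in mES on the log2 scale.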

How the data were processed

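Per the file headers, the deposited scanner table gave each probe's mean bead intensity on the linear scale, without normalization between arrays, and a detection p-value. Per the submitters' processing notes the deposited series matrix came from lumi, whose version is not given in the sources here. It holds log2 values normalized by the authors. The scanner intensities were used, and the matrix was an alternative. For 3774 of 45281 probes (8.335%) the matrix differed by more than 0.1 from the probe's own scanner signal, mapped through a running median. Of these, 2 were members' probes (both Psmd7), and none was a tested one.

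Background was corrected with limma's nec, which reads the detection p-values, with an offset of 16. Arrays were then quantile normalized on the log2 scale (R version 4.3.3, limma version 3.58.1, data.table version 1.17.8). A probe was kept if its detection p was under 0.01 on 3 or more of the 9 arrays. The brightest probe of each gene was fitted over all 9 arrays and 10800 genes (lmFit, eBayes), with Benjamini-Hochberg adjustment in each comparison. The number of arrays limits the precision. If none of a group's arrays detected a probe, its fold is a bound, with that group's values raised to each array's lowest detected signal. Levels of different probes were not compared.

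The members, gene lists and motifs were chosen with earlier results of these data known. By rule, values on every array were given for named anchors, for the extremes of each role and for members against their role's majority, and values for up to 3 called genes of each other list. Replicate numbers were checked for pairing. Deviations of arrays with the same number correlated at -0.075 to 0.391, not all over 0.1, so the numbers were not taken as pairs. The largest were between CMp and CMa, at 0.352 for replicate 1 and 0.391 for replicate 3, against -0.075 for replicate 2. Alternatives were scaling to equal medians, cyclic loess, no background correction, other detection filters, other probes, the matrix, each array left out, a replicate block and a test against 1.5-fold. Scripts were tested on simulated data. Figures were drawn with matplotlib version 3.10.9.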

Additional observations from a re-analysis of the deposited data

How the results depend on the processing

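Testing against a 1.5-fold change left 9 members lower in CMa against mES, 17 lower in CMp against mES, and 2 higher and 0 lower in CMa against CMp. Scaling to equal medians gave members' medians of -1.27 in CMa and -1.55 in CMp against mES, and among all called genes the share called higher was then 31.1% and 34.7%, against 47.8% in both under quantile normalization; in CMa against CMp it was 35.1% against 50.5%. Cyclic loess gave a median of -0.50 in CMa against mES and 1 member lower in CMa against CMp, and the authors' matrix a median of -0.72 in CMp. With 1 array left out, the count higher in CMa against CMp was 7 to 15 and lower 1 to 2, members lower than mES numbered 24 to 31 in CMa and 31 to 33 in CMp, and members higher numbered 6 each time in CMa and 2 to 3 in CMp. Signs of called changes turned in 4 cases, and sign changes of values uncalled in both settings were not counted: Psmb10 in CMp at -0.16 and Psmc3 in CMa at -0.56, both under median scaling, and Psmd7 with its dimmest kept probe, an alternative chosen after seeing the data, at 0.63 in CMp and -1.96 in CMa against CMp. The cause was not tested. With the replicate number as a block, 27 members were lower and 6 higher in CMa, 33 lower and 3 higher in CMp, and 14 higher and 2 lower in CMa against CMp. Dim probes near the background, such as those of Psmd2, Psmd5, Psmd9 and Psmc6, limit the size of a fall that can be measured.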
